A study of Mus musculus with 2 samples.

Results

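Timeless and Tipin encode the partners of the fork protection complex, and their transcripts were followed here in cycling and non-cycling dendritic cells of the mouse lung. Both were found by symbol and gene ID in the 31053 features of each count matrix, so 2 of 31053 genes are described, in 2 libraries. The pair was chosen with the level of Timeless outside the cell cycle in view. The levels that prompted the choice are therefore given as a description of these cells.

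Lung tissue of C57BL/6 mice, 8 to 10 weeks old, was dissociated with dispase and conventional dendritic cells (cDCs) were sorted from it by flow cytometry. The cDC1 sort took cells with the chemokine receptor XCR1, and the cDC2 sort took cells with CD172a, the product of Sirpa. There was 1 droplet single-cell RNA library per sort, no treatment is named, and the sources used here do not give the number of mice. No test between the sorts was therefore possible, intervals are 95% intervals that cover counting error only, and library cannot be told apart from sort.

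TIMELESS and TIPIN bind each other and travel with the replication fork, where they tie the helicase to the polymerases together with Claspin and AND-1. At stalled forks they help the kinase ATR activate CHK1, and they take part in the cohesion of sister chromatids. TIMELESS also binds the poly(ADP-ribose) polymerase PARP1. It carries the name of a circadian gene of Drosophila to which it is related, and its part in the mammalian clock is debated. Genes of the fork are usually transcribed most in cells that are preparing for or passing through S phase.

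Filtering left 2574 cells in the cDC1 sort, with 35071861 unique molecular identifiers (UMIs, each marking 1 captured transcript), and 2835 cells in the cDC2 sort, with 38613693 UMIs. The median cell had 12866 UMIs in the cDC1 sort and 12655 UMIs in the cDC2 sort. The sort genes followed the labels, with Xcr1 at 248 CPM (the UMIs of a gene as a share of all UMIs of the same cells, scaled to 1000000) in the cDC1 sort against 4.84 CPM in the cDC2 sort. Sirpa was at 5.62 CPM in the cDC1 sort and 123 CPM in the cDC2 sort. A cell was called cycling at 4 or more UMIs summed over Mki67, Top2a, Birc5, Cdk1, Ccna2 and Ube2c, and non-cycling at a sum of 0. By this gate 379 cells of the cDC1 sort (14.7%) and 420 cells of the cDC2 sort (14.8%) were cycling, and 1252 (48.6%) and 1389 (49.0%), in the same order, were non-cycling. Doublets were not removed, and 6 cell barcodes occurred in both libraries.

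In non-cycling cells, Timeless was abundant in the cDC1 sort and close to undetected in the cDC2 sort. The 1252 non-cycling cells of the cDC1 sort held 1186 Timeless UMIs, or 76.8 CPM (72.5 to 81.3). The 1389 non-cycling cells of the cDC2 sort held 26 Timeless UMIs, or 1.60 CPM (1.04 to 2.34). The ratio of the cDC1 sort to the cDC2 sort was 48.1 (32.7 to 74.0), the fourth highest among 2546 genes that reached 50 CPM in 1 of these groups (rank 4). A gene was counted as measured at 10 CPM or more in 1 of the groups compared and as higher or lower at a 2-fold difference. Among 6505 genes measured in non-cycling cells, 5.78% were higher and 8.96% were lower in the cDC1 sort by this rule of size.

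Tipin did not share this difference. The same non-cycling cells held 86 Tipin UMIs in the cDC1 sort and 90 in the cDC2 sort, which gave 5.57 and 5.52 CPM, in the same order. The ratio was 1.01 (0.741 to 1.37), and Tipin lay below the 10 CPM that counted as measured. A level outside the cell cycle as high as in cycling cells, the pattern for which the pair was chosen, was thus seen for Timeless in the cDC1 sort only, and Tipin and Timeless in the cDC2 sort did not show it.

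In cycling cells the distance between the sorts was smaller for Timeless and again small for Tipin. Timeless reached 69.2 CPM (63.2 to 75.6) in cycling cells of the cDC1 sort, from 494 UMIs, and 9.02 CPM (7.08 to 11.3) in those of the cDC2 sort, from 74 UMIs. The ratio was 7.67 (6.00 to 9.93), where 5.2% of 7040 measured genes were higher and 7.03% lower in the cDC1 sort. Tipin was at 36.4 CPM in cycling cells of the cDC1 sort and 37.7 CPM in those of the cDC2 sort, a ratio of 0.967 (0.817 to 1.14). Over all cells, where 5.51% of 6610 genes were higher and 7.79% lower, Tipin had a ratio of 0.884 (0.776 to 1.01).

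Set against the non-cycling cells of their own library, Timeless in the cDC1 sort was the one of the 4 gene and library pairs without a higher level in cycling cells. Its ratio of cycling to non-cycling cells was 0.901 (0.810 to 1.0) in the cDC1 sort and 5.65 (3.57 to 9.21) in the cDC2 sort, where both levels were under 10 CPM. Tipin was higher in cycling cells of both libraries, with a ratio of 6.54 (5.11 to 8.45) in the cDC1 sort and 6.82 (5.37 to 8.72) in the cDC2 sort. Of all measured genes, 6.28% of 6700 were at least 2-fold higher in cycling cells of the cDC1 sort and 0.522% lower. In the cDC2 sort 5.75% of 6735 were higher and 1.23% lower.

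The direction for Timeless in the cDC1 sort depended on the scale. Cycling cells carried more RNA, with a median of 18713 UMIs against 12169 UMIs in non-cycling cells of that library. Per cell, without scaling to depth, Timeless averaged 1.30 UMIs in cycling cells and 0.947 UMIs in non-cycling cells, a ratio of 1.38. On both scales the difference stayed under 2-fold.

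**Figure D1:**
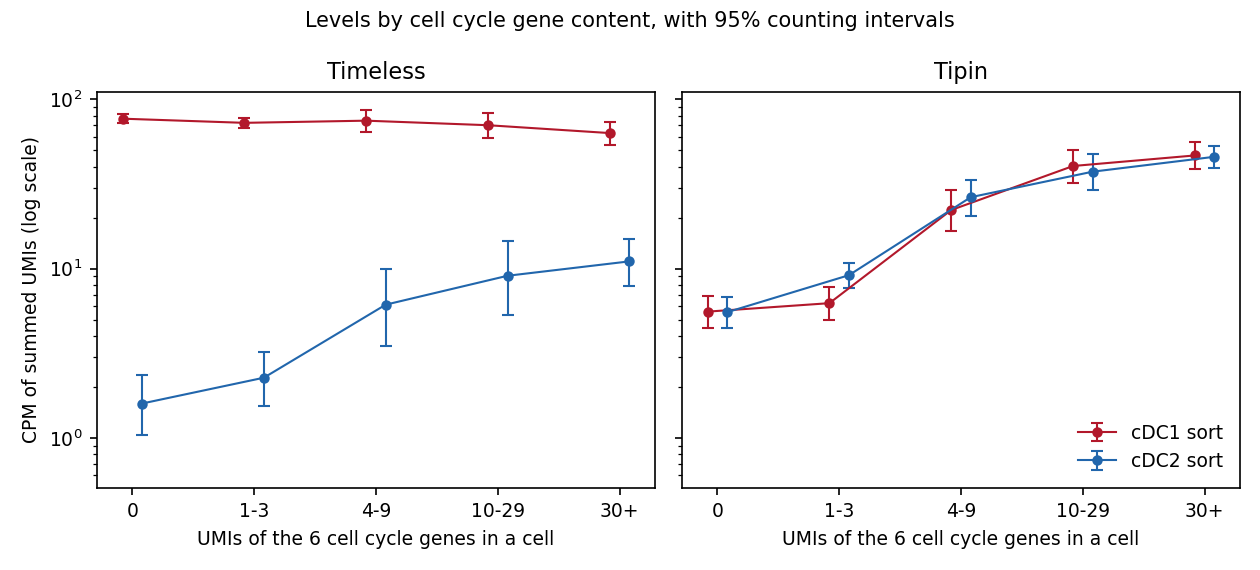
CPM of summed UMIs on a log axis for Timeless (left panel) and Tipin (right panel), by the UMIs of the 6 cell cycle genes in a cell, with 95% counting intervals, in the cDC1 sort (red) and the cDC2 sort (blue). Timeless stays between 63.1 and 76.8 CPM across all bins of the cDC1 sort, while Tipin climbs in both libraries to 46.6 CPM and 45.7 CPM in the highest bin.

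Finer steps of the cell cycle gene sum, shown in the plot of levels by cell cycle gene content, gave the same picture. In the cDC1 sort Timeless was at 76.8 CPM in cells with a sum of 0, 72.6 CPM at 1 to 3, 74.7 CPM at 4 to 9, 70.3 CPM at 10 to 29 and 63.1 CPM at 30 or more. Tipin in these bins was at 5.57, 6.25, 22.2, 40.3 and 46.6 CPM. In the cDC2 sort Timeless was at 1.60, 2.27, 6.12, 9.07 and 11.0 CPM over the same steps, and Tipin at 5.52, 9.14, 26.4, 37.3 and 45.7 CPM. By ratio, the Tipin levels of the sorts lay closest in cells with a sum of 0 and farthest apart at 1 to 3, and Timeless in the cDC2 sort was highest in the cells richest in cell cycle transcripts.

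The gate genes mark mainly G2 and mitosis, so S phase was read separately from 9 genes (Rrm2, Tyms, Uhrf1, Cdc45, Cdc6, Gins2, Clspn, Ccne2 and Pclaf). Non-cycling cells with no UMI of these 9 genes either still had Timeless at 78.2 CPM in the cDC1 sort (1049 cells) and at 1.23 CPM in the cDC2 sort (1141 cells). Tipin in those cells was at 4.92 CPM in the cDC1 sort and 4.39 CPM in the cDC2 sort. Among cycling cells of the cDC1 sort, Timeless was at 74.7 CPM with an S-phase sum of 0 to 4, 67.4 CPM at 5 to 14 and 63.2 CPM at 15 or more. Tipin in the same cells was at 8.54, 33.1 and 74.7 CPM. In cycling cells of the cDC2 sort Timeless was at 2.11, 11.1 and 17.2 CPM over these steps, and Tipin at 8.45, 39.7 and 81.0 CPM. Both genes were therefore highest in S-phase-rich cells of the cDC2 sort, and only Tipin was in the cDC1 sort.

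**Figure D2:**
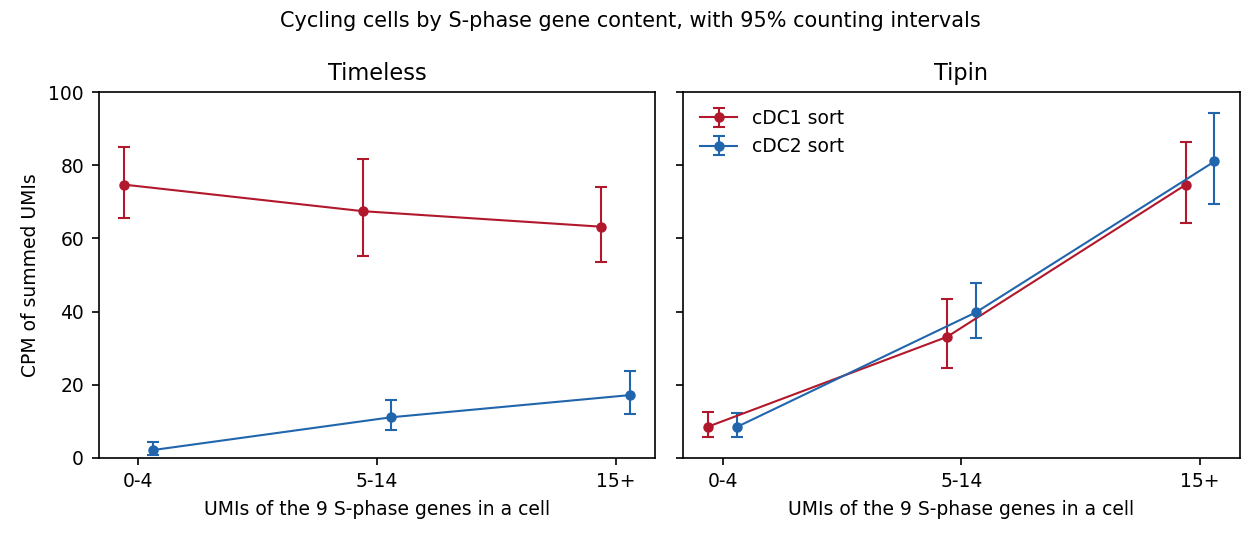
CPM of summed UMIs in cycling cells, by the UMIs of the 9 S-phase genes in a cell, for Timeless (left panel) and Tipin (right panel) in the cDC1 sort (red) and the cDC2 sort (blue), with 95% counting intervals. Tipin reaches 74.7 CPM and 81.0 CPM in the richest cells of the cDC1 and cDC2 libraries, and Timeless in the cDC1 sort is at 63.2 CPM there against 74.7 CPM in the poorest.

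The Timeless UMIs were spread over many cells. Of the non-cycling cells of the cDC1 sort, 604 (48.2%) had no Timeless UMI, 347 had 1, 164 had 2, 75 had 3 and 62 had 4 or more, with a highest value of 7. Of the non-cycling cells of the cDC2 sort, 1367 (98.4%) had none, 19 had 1, 2 had 2 and 1 had 3. Before thinning, 62.3% of cycling and 51.8% of non-cycling cells of the cDC1 sort had a Timeless UMI, against 14% and 1.58% of those of the cDC2 sort.

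**Figure D3:**
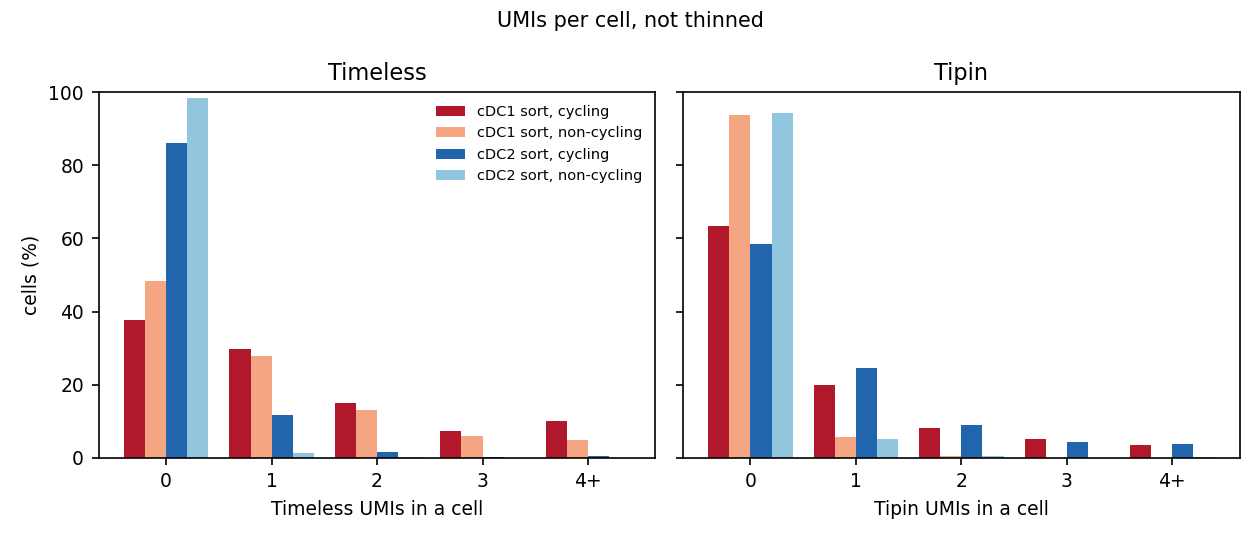
Share of cells (%) by their number of Timeless UMIs (left panel) and Tipin UMIs (right panel), for cycling (dark) and non-cycling (light) cells of the cDC1 sort (red) and the cDC2 sort (blue), without thinning. No Timeless UMI was seen in 48.2% of non-cycling cells of the cDC1 sort and in 98.4% of those of the cDC2 sort.

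Because cycling cells were deeper, each cell was also thinned to 5000 UMIs, which left out 48 shallower non-cycling cells of the cDC1 sort and 102 of the cDC2 sort, and 1 and 4 cycling cells. At this depth 28.8% of cycling and 29.7% of non-cycling cells of the cDC1 sort had a Timeless UMI. In the cDC2 sort the shares were 2.40% of cycling and 0.855% of non-cycling cells. For Tipin they were 15.1% of cycling and 2.08% of non-cycling cells in the cDC1 sort, and 15.6% and 3.11% in the cDC2 sort. Of 24 non-cycling cells with cDC2 markers in the cDC1 sort, 0 had a Timeless UMI at this depth, with an exact binomial upper bound of 14.2%. Of non-cycling cells with cDC2 markers in the cDC2 sort, 0.591% had one. The cells with cDC2 markers in the cDC1 sort had cDC1 markers summing to 243 CPM, against 3104 CPM in its cells with cDC1 markers. They are too few to measure free RNA, and its part was not tested.

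Cells with and without Timeless differed little in Tipin within the cDC1 sort. A Tipin UMI was seen in 6.79% of the 648 non-cycling cells with Timeless and in 5.79% of the 604 without. In cycling cells of the cDC1 sort the shares were 38.1% of 236 with Timeless and 34.3% of 143 without. In cycling cells of the cDC2 sort they were 76.3% of 59 with Timeless and 36.0% of 361 without. Cells with Timeless were also somewhat deeper, with medians of 20191 UMIs with it and 19149 UMIs without it in the last of these comparisons, and the part of depth was not tested.

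Most other measured genes of the fork and of replication were higher in cycling cells, as Tipin was. The lists held 67 genes besides the pair, covering the fork protection and checkpoint proteins, the replicative helicase, origin licensing, polymerases and clamp, and nucleotide supply. In the cDC1 sort 44 of 51 measured genes were higher in cycling cells and 0 were lower, with a median log2 ratio of 2.60 against 0.17 over all measured genes. In the cDC2 sort 41 of 49 were higher and 0 lower, with a median of 2.13 against 0.12. Of all measured genes, 6.28% were higher and 0.522% lower in cycling cells of the cDC1 sort. These shares were 5.75% and 1.23% in the cDC2 sort, so 0 lower was near the background in both. Between the sorts in non-cycling cells, 1 of 18 measured genes was higher in the cDC1 sort and 0 were lower, with a median log2 ratio of -0.12 against -0.06 over all measured genes. These counts are near the background of 5.78% higher and 8.96% lower. The gene that was higher was Mcm6, a subunit of the helicase, at 23.4 CPM in the cDC1 sort and 10.2 CPM in the cDC2 sort.

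Among the partners, Clspn, which encodes Claspin, was at 35.9 CPM in cycling and 1.75 CPM in non-cycling cells of the cDC1 sort, a ratio of 20.5 (13.8 to 31.7). Topbp1, an activator of ATR, was at 48.6 CPM in cycling and 9.65 CPM in non-cycling cells. Rpa2, of the complex that coats single-stranded DNA, was at 39.8 CPM in cycling and 11.3 CPM in non-cycling cells. Wdhd1, which encodes AND-1, was at 12.5 CPM in cycling and 4.73 CPM in non-cycling cells. In the whole fork and checkpoint list 6 of 9 measured genes were higher in cycling cells of the cDC1 sort and 6 of 10 in those of the cDC2 sort. The shares over all measured genes were 6.28% and 5.75%, in the same order. Atr itself was within 2-fold, at 29.6 CPM in cycling and 35.6 CPM in non-cycling cells of the cDC1 sort.

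The machinery of DNA synthesis showed larger steps in the cDC1 sort. Mcm7, a helicase subunit, was at 99.2 CPM in cycling and 5.24 CPM in non-cycling cells. Lig1, the ligase that joins Okazaki fragments, was at 102 CPM in cycling and 9.39 CPM in non-cycling cells. Rrm2, a subunit of ribonucleotide reductase, was at 80.1 CPM in cycling and 1.10 CPM in non-cycling cells. Pcna, the sliding clamp, was at 151 CPM in cycling and 50.8 CPM in non-cycling cells, the highest non-cycling level of the 51 genes.

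**Figure D4:**
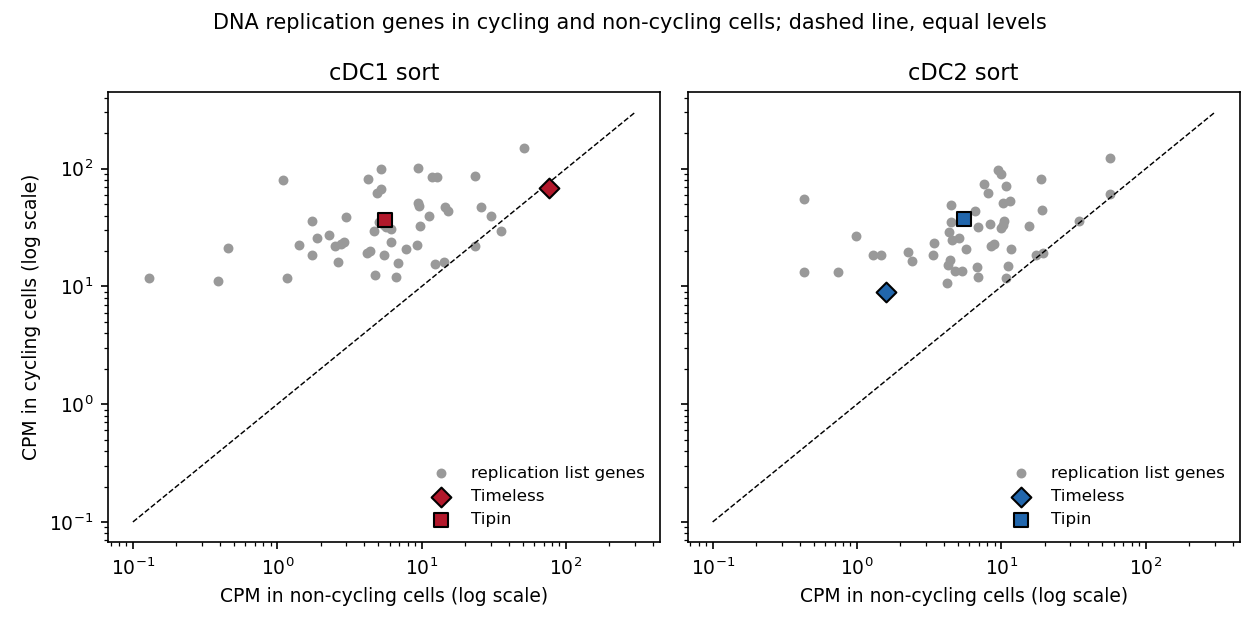
CPM in cycling cells against CPM in non-cycling cells, both on log axes, for the measured genes of the replication lists (grey), Timeless (diamond) and Tipin (square), in the cDC1 sort (left) and the cDC2 sort (right), with a dashed line at equal levels. Timeless sits at the line in the cDC1 sort, at 69.2 CPM in cycling and 76.8 CPM in non-cycling cells, and Tipin sits among the other genes in both.

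In non-cycling cells of the cDC1 sort Timeless kept 111% of its CPM in cycling cells, against a median of 16.4% for the 51 other measured replication genes. Of these, 1 gene had a larger share, Atr with 120%. Orc4 with 106% and Rad17 with 89.6% followed below Timeless. Tipin kept 15.3% in the cDC1 sort and 14.7% in the cDC2 sort, where the median of 49 other genes was 22.8%. None of the 51 genes had a higher CPM than Timeless in non-cycling cells of the cDC1 sort.

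Genes of the circadian clock, of cohesion and of poly(ADP-ribose) metabolism were compared in the same way. Of 23 clock genes, 8 were measured in non-cycling cells and 0 differed 2-fold between the sorts, with a median log2 ratio of -0.21 against -0.06 over all measured genes. With 5.78% of all measured genes higher and 8.96% lower, a count of 0 among 8 is near the background. Below 10 CPM, the nuclear receptor gene Rora was at 2.14 CPM in the cDC1 sort and 8.59 CPM in the cDC2 sort, a ratio of 0.249 (0.165 to 0.365). Per3, a period gene, was at 2.27 CPM in the cDC1 sort and 0.675 CPM in the cDC2 sort. Bhlhe40, a repressor that acts on clock genes, was at 473 CPM in the cDC1 sort and 605 CPM in the cDC2 sort. Nfil3, a repressor tied to the clock and to cDC1 development, was at 44.4 CPM in the cDC1 sort and 63.9 CPM in the cDC2 sort. Clock was at 31.7 CPM in the cDC1 sort and 32.0 CPM in the cDC2 sort. None of 8 measured clock genes was 2-fold apart between cycling and non-cycling cells of either library. Over all measured genes, 6.28% were higher and 0.522% lower in cycling cells of the cDC1 sort. In the cDC2 sort these shares were 5.75% and 1.23%, so 0 of 8 was near the background in both. Against these shares, 6 of 12 measured cohesion genes were higher in cycling cells of each sort. Between the sorts, 10 cohesion genes were measured in non-cycling cells and 0 differed 2-fold, again near the background. Parp1 was at 37.1 CPM in the cDC1 sort and 45.2 CPM in the cDC2 sort.

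The cells around the sort gates were separated by markers, with a cDC1-marker cell defined by 5 or more UMIs of 9 cDC1 markers and more of them than of 9 cDC2 markers, and a cDC2-marker cell by the reverse. In the cDC1 sort 1200 non-cycling cDC1-marker cells had Timeless at 79.6 CPM, and 26 cDC2-marker cells had 0 Timeless UMIs, which allows up to 7.44 CPM at a limit of 3 counts. In the cDC2 sort 50 non-cycling cDC1-marker cells had Timeless at 13 CPM, from 7 UMIs, and 1232 cDC2-marker cells had it at 1.06 CPM, from 16 UMIs. With cells matched to their sort in this way the ratio of the sorts was 74.9. The 26 cDC2-marker cells of the cDC1 sort also had macrophage markers summing to 3168 CPM and neutrophil markers to 1930 CPM, against 19.1 and 1.35 CPM in its cDC1-marker cells. Their mature dendritic cell markers summed to 6294 CPM, against 1347 CPM, but these markers did not all go the same way. Ccr7 was at 1749 CPM against 202 CPM, while Fscn1 was at 29.8 CPM against 77.3 CPM. Apol7c and Nudt17 had no UMI in the cDC2-marker cells. The part of these cells in the difference was not tested.

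The cDC1-marker cells of the cDC2 sort were not a copy of those of the cDC1 sort. With mature cells left out, 39 such cells of the cDC2 sort had Timeless at 16.8 CPM (6.76 to 34.6), against 82.0 CPM in 1164 of the cDC1 sort. Their Irf8, a cDC1 transcription factor, was at 1273 CPM, against 1161 CPM in the cDC1 sort. Their Xcr1 was at 72.0 CPM, against 249.8 CPM in the cDC1 sort. Their 7 monocyte markers summed to 1366 CPM against 579 CPM. Plac8, 1 of these markers, was at 857 CPM against 31.7 CPM and made up the difference. The other monocyte markers together were not higher. Their B cell markers summed to 257 CPM against 60.7 CPM, and their NK and T cell markers to 245 CPM against 25.6 CPM. Their plasmacytoid dendritic cell markers summed to 442 CPM against 175 CPM. Siglech, 1 of these markers, was at 40.8 CPM against 16.4 CPM and made up a small part of the difference. Their 9 cDC1 markers summed to 2032 CPM against 3159 CPM, and their cDC2 markers to 300 CPM against 73.7 CPM. The part of other cells in the lower Timeless was not tested.

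Over the whole libraries, macrophage markers summed to 103 CPM in non-cycling cells of the cDC1 sort and 1122 CPM in those of the cDC2 sort, and neutrophil markers to 108 and 808 CPM, in the same order. Within the cDC2 sort, 30 non-cycling cells with 20 or more UMIs of neutrophil, B, NK or T cell markers and under 5 UMIs of each set of dendritic markers had 0 Timeless UMIs, which allows up to 29.6 CPM.

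The states of the cDC1 sort differed in Timeless, and most of all the mature cells. The states were set by UMI gates on marker genes, gates other than the mature one were taken among cells with fewer than 3 Fscn1 UMIs, and they overlap. The 48 mature non-cycling cells, with 3 or more UMIs of the actin-bundling gene Fscn1, held 2 Timeless UMIs, or 3.47 CPM (0.420 to 12.5). The other 1204 non-cycling cells had it at 79.6 CPM, a ratio of 0.0436 (0.00527 to 0.158). In this contrast 17.2% of 6746 genes were higher and 17.9% lower in mature cells, and Timeless ranked 10 from the lowest of 2725 genes at 50 CPM or more. With a cell cycle gene sum of 0 to 3 in place of 0, 78 mature cells held 12 Timeless UMIs, or 11.9 CPM, against 77.3 CPM in the rest, and the ratio was 0.154 (0.0795 to 0.270).

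The 9 cDC1 markers summed to 1179 CPM in the mature cells, of which Irf8 made up 890 CPM, against 2997 CPM in all non-cycling cells of the sort, with Irf8 at 1117 CPM. Other cDC1 markers were lower by more, with Xcr1 at 52.0 CPM in mature cells against 235 CPM, Cadm1 at 45.1 against 241 CPM and Cd207 at 32.9 against 473 CPM. Markers of neutrophils and of NK and T cells were at 0 in them, and 1 of 9 macrophage markers was detected. Among cells with cDC1 markers the ratio of mature to other cells was 0.0518 (0.00627 to 0.188). In the cDC2 sort 46 mature non-cycling cells held 2 Timeless UMIs, or 4.21 CPM. Of the replication lists, 3 of 19 measured genes were higher and 2 lower in mature cells of the cDC1 sort. With 17.2% of all measured genes higher and 17.9% lower, these counts are near the background. Of those higher, Atr was at 88.4 CPM in mature and 33.6 CPM in other cells. The median log2 ratio of the 19 genes was 0.13, against 0.02 over all measured genes.

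Cells with the chemokine receptor gene Ccr7 but little Fscn1 lay in between. The 98 non-cycling cells with 2 or more Ccr7 UMIs had Timeless at 36.8 CPM (27.3 to 48.5), against 83.9 CPM in the rest, a ratio of 0.438 (0.323 to 0.582). In this contrast 6.91% of 6370 genes were higher and 6.94% lower. These cells also had cDC2 markers summing to 728 CPM, against 149 CPM in all non-cycling cells of the library. Among cells with cDC1 markers the level was 48.4 CPM against 84.6 CPM, and the ratio of 0.572 (0.422 to 0.759) no longer reached 2-fold. The 98 gated cells and the 75 of them with cDC1 markers held the same 50 Timeless UMIs. Over cells with a cell cycle gene sum of 0 to 3 and fewer than 3 Fscn1 UMIs, Timeless was at 82.6 CPM with 0 Ccr7 UMIs, 64.3 CPM with 1, 59.5 CPM with 2 to 4 and 32.0 CPM with 5 or more. These steps were not limited to cells with cDC1 markers, and the part of other cells in them was not tested.

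**Figure D5:**
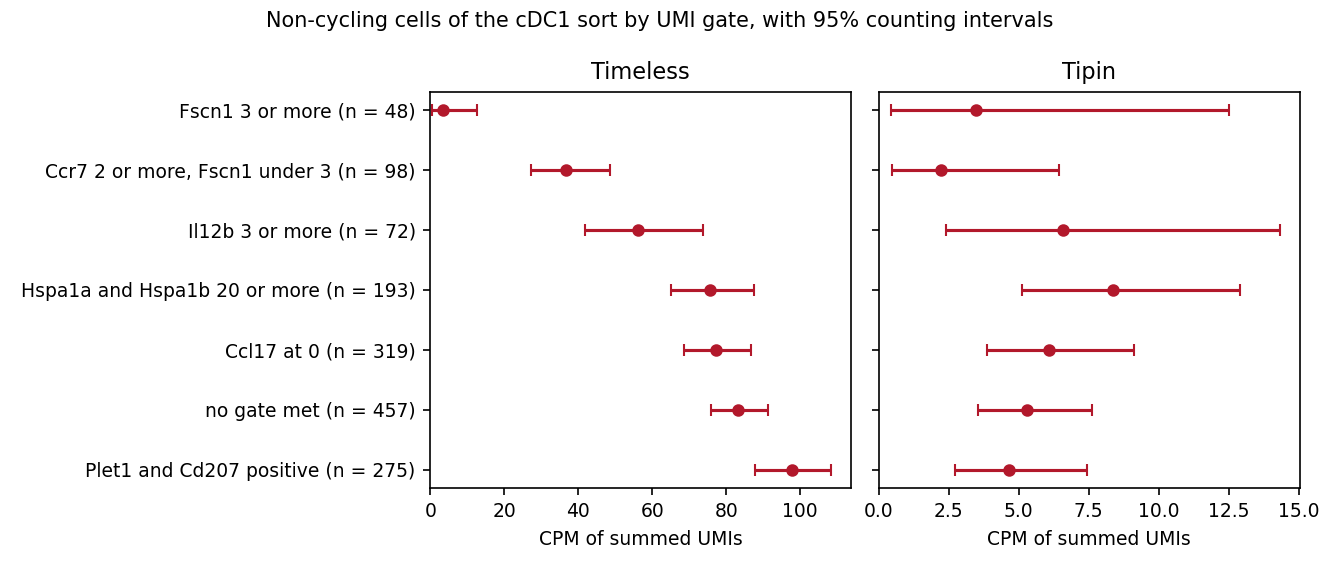
CPM of summed UMIs of Timeless (left panel) and Tipin (right panel, on its own scale) in non-cycling cells of the cDC1 sort by UMI gate, with 95% counting intervals and the number of cells (n). Timeless runs from 3.47 CPM in cells with 3 or more Fscn1 UMIs to 97.7 CPM in cells positive for Plet1 and Cd207, and the Tipin intervals overlap throughout.

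The other gated states were less far from the rest. The 275 cells with Plet1 and 3 or more UMIs of the lectin gene Cd207 had the highest Timeless, at 97.7 CPM against 73.7 CPM in the rest, a ratio of 1.33 (1.17 to 1.5). That was below 2-fold, in a contrast where 0.325% of 6150 genes were higher and 2.1% lower. The 72 cells with 3 or more UMIs of Il12b, a subunit of interleukin-12, were at 56.0 CPM against 81.2 CPM. Cells without the chemokine transcript Ccl17 were at 77.3 CPM against 80.4 CPM, and cells with 20 or more UMIs of the heat shock genes Hspa1a and Hspa1b were at 75.7 CPM against 80.4 CPM. The gate on Plac8 and Irf7 held 1 non-cycling cell and gave no level by itself. At a cell cycle gene sum of 0 to 3 it held 3 cells with 10 Timeless UMIs, or 163 CPM against 77.1 CPM. That ratio of 2.11 (1.01 to 3.89) rests on these 3 cells only. Tipin ranged over the states of more than 1 non-cycling cell from 2.21 to 8.36 CPM, and each interval of its ratio to the rest included 1. With a cell cycle gene sum of 0 to 3, Tipin in the Il12b cells was at 2.76 CPM against 6.33 CPM. That ratio was 0.437 (0.185 to 0.882), while the intervals of the other states included 1.

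Clusters of the cells of both sorts, made without Timeless, Tipin or the list genes, gave a like range. Over 7 clusters of at least 50 cells from the cDC1 sort, Timeless ran from 12 CPM in the cluster led by Apol7c and Fscn1 to 99.3 CPM in the cluster led by 2310031A07Rik, Itga3, Galc and Plet1. The cluster led by Cxcl9, Rsad2, Plac8 and Irf7, with 55 cells of the cDC1 sort of which 61.8% were non-cycling, was at 39.0 CPM (26.8 to 54.7). The other 5 clusters of the cDC1 sort ran from 62.1 to 99.3 CPM. The cluster led by Rrm2 and Kif11, of which 95.2% of cells were cycling, was at 70.2 CPM. Over 7 clusters from the cDC2 sort Timeless ran from 0.777 to 8.42 CPM, and the highest was the cluster of which 97.8% of cells were cycling. Tipin ran from 3.62 to 45.7 CPM in the cDC1 sort and from 3.38 to 41.1 CPM in the cDC2 sort.

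Across these 14 sums, the genes most like Timeless by the Pearson correlation of log2(CPM + 1) were Itga1 (0.963), Lrba (0.959), Dkk3 (0.958), Hps4 (0.955) and Homer2 (0.954). Each was also higher in the cDC1 sort than in the cDC2 sort, so the difference between the sorts enters these correlations. By ratio they ran from Hps4, at 40.2 against 12.6 CPM, to Dkk3, at 15.9 against 0.181 CPM. The genes most like Tipin were Dnmt1 (0.973), Smc1a (0.958), Anp32b (0.957), Lig1 (0.955) and Mcm7 (0.951). The correlation of Timeless with Tipin was 0.12. Timeless, Tipin and the list genes were left out of the clustering, but the sums share 2 libraries and their cells, so these values describe the clusters and carry no test.

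On mouse build mm10, Timeless (ENSMUSG00000039994) lies on the plus strand of chromosome 10 from 128232065 to 128252941, and Tipin (ENSMUSG00000032397) on the plus strand of chromosome 9 from 64281581 to 64305424. The antisense lincRNA Gm26847 overlaps the start of Timeless and was at 0.583 CPM in non-cycling cells of the cDC1 sort and 0.184 CPM in those of the cDC2 sort. Apon begins 1155 bases after the end of Timeless on the same strand and was at 0.712 CPM in the cDC1 sort and 0 CPM in the cDC2 sort. Stat2, a transcription factor of interferon signalling that begins 17618 bases after Timeless, was at 75.9 CPM in the cDC1 sort and 31.2 CPM in the cDC2 sort, a ratio of 2.43 (2.19 to 2.70). Beside Tipin, Dis3l on the other strand was at 2.78 CPM in the cDC1 sort and 2.27 CPM in the cDC2 sort. The sources used here do not give the strand setting of the counting.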

How the data were processed

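The deposited files are the authors' raw UMI counts, with a matrix of genes by cell barcodes for each sort. The submitters' processing notes name Cell Ranger 3.2 on mm10, and Seurat without a role. Per the file headers the software version is 3.0.2. Libraries were made with a 10x Chromium kit and multiplexed in 1 sequencing lane, per the labels' protocols. The kit counts 3' ends, and UMIs remove amplification duplicates.

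Cells with fewer than 500 genes, fewer than 1000 UMIs or over 10% mitochondrial UMIs were removed (365 barcodes in the cDC1 sort, 210 in the cDC2 sort). No doublet caller was run. Summed UMIs of a group of cells were scaled to CPM and given exact Poisson intervals. Ratios have exact conditional binomial intervals at the 95% level. With 1 library per sort, no p-value was computed, and cells are not replicates. The ratio script was tested on simulated data. Clusters were made with scanpy 1.11.5, and an edgeR 4.0.16 TMM factor served as an alternative scaling. Coordinates come from GENCODE vM21.

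The members, lists, gates and alternatives were chosen with earlier results of these data known. In each list the genes named had the largest ratios (at most 4) or the highest CPM (2), and some others (Wdhd1, Atr and Clock among them) were chosen after their values were seen.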

Additional observations from a re-analysis of the deposited data

Results flagged for a closer look

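The ratio of cycling to non-cycling CPM for Timeless was 0.901 (0.810 to 1.0) in the cDC1 sort and 5.65 (3.57 to 9.21) in the cDC2 sort, on either side of 1. The first interval includes 1, and per cell both ratios were above 1 (1.38 and 9.41, in the same order), so no opposite direction is shown. The difference between these ratios was not tested, since there is 1 library per sort.

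Barcodes removed by the cell filter, which enter no comparison above, also held transcripts of the pair. The 365 removed barcodes of the cDC1 sort had Timeless at 73.7 CPM (57.5 to 93.1), from 70 UMIs, and Tipin at 8.42 CPM, from 8 UMIs. The 210 removed barcodes of the cDC2 sort had Tipin at 6.95 CPM, from 4 UMIs, and 3 Timeless UMIs.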

How the results depend on the processing

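Over the alternatives tried for the comparisons of sorts and of cycling with non-cycling cells, 162 values and counts stayed within their interval or within 1.5 times and 25 moved. Of the other values (shares of cells, cluster ranges and states) 18 stayed and 20 moved, the shares mainly with the thinning depth. Among differences of at least 2-fold, 0 changed direction. The ratio of the sorts for Timeless in non-cycling cells ran from 40.3 to 74.9, and in cycling cells from 6.39 to 8.05. With cells matched to their sort by markers it was 74.9 in non-cycling and 26.0 in all cells. The ratio of cycling to non-cycling cells for Timeless in the cDC1 sort was 0.796 with TMM scaling. As mean UMIs per cell, an alternative chosen after seeing the data, it was 1.38 in the cDC1 sort and 9.41 in the cDC2 sort, and for Tipin 9.99 and 11.4. The cause was not tested.

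Replication genes higher in the cDC1 sort among non-cycling cells numbered 1, and became 2 without S-phase cells, without mitochondrial and ribosomal genes or at 5 CPM, 3 at 1.5-fold, 4 with no minimum, and 0 at 3-fold or 50 CPM. Those lower numbered 0, and became 1 without S-phase cells, with the mean of per-cell CPM or at 5 CPM, 3 at 1.5-fold and 7 with no minimum. Clock genes 2-fold apart between the sorts numbered 0, and became 1 without mitochondrial and ribosomal genes or at 5 CPM and 4 with no minimum, where 2 also differed with the cycle in the cDC1 sort. At 50 CPM, 11 replication genes were higher in cycling cells of the cDC1 sort and 10 in those of the cDC2 sort. Fewer genes are measured at a higher minimum, and more with no minimum. The share of all genes called was not computed under these alternatives, so their counts cannot be set against a background. No paired analysis was possible because each sort has 1 library and the labels carry no shared replicate numbers. Restricting the states to cells with cDC1 markers, or widening the states to a cell cycle gene sum of 0 to 3, was also chosen after seeing the data. Small states rest on few UMIs, so the mature ratio is wide.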
